A study of Rattus norvegicus with 8 samples.

Results

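The lysyl oxidases are the 5 genes Lox, Loxl1, Loxl2, Loxl3 and Loxl4. They were taken by gene symbol from the 37209 genes of the deposited count table, without use of any measured value, and all 5 were among the 14359 genes that passed the filter on low counts. The RNA came from carotid arteries of male Sprague-Dawley rats, which weighed 400 g on average and whose age was not given. The intima of the left carotid artery had been injured with a balloon catheter, and this artery was harvested after 2 weeks (injured, n = 4). The contralateral right carotid artery, left undamaged, was the control (n = 4), so the control vessels came from animals that had also been through isoflurane anaesthesia and surgery. The comparison asks how the mRNA of each lysyl oxidase differed between the injured and the undamaged vessel.

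Lysyl oxidases are secreted copper-dependent amine oxidases. They oxidise lysine residues of collagen and elastin to aldehydes, which then condense into the cross-links that give the extracellular matrix of the arterial wall its strength and its recoil. LOX and LOXL1 are made as proenzymes whose propeptide is cut off by BMP1-type proteases, while LOXL2, LOXL3 and LOXL4 carry scavenger receptor domains ahead of the catalytic domain.

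The libraries held between 11459632 and 16658089 counts, so 3 counts corresponded to between 0.180 and 0.262 CPM. CPM is the count of a gene per 1000000 counts of the library, after edgeR's TMM scaling (the floor is per library total). Control artery 4 stood apart, since the correlation of its log2 CPM with the other controls, across genes, was between 0.83 and 0.852, against 0.976 to 0.978 among those 3. The summed sympathetic neuron markers reached 5835 CPM in control artery 4 and 950.4 CPM in injured artery 3, against 0.49 to 2.30 CPM in the other controls and 9.03 to 76.8 CPM in the other injured arteries. The extraction protocol in the labels names prefrontal cortex, whereas all other labels name the carotid artery. Summed cortical neuron markers were between 4.71 and 23.7 CPM, while contractile smooth muscle markers summed to between 10474 and 50172 CPM, and Neurod6, a defining cortical marker, had at most 2 counts in any library. The lysyl oxidases are therefore given with and without control artery 4. Injured artery 3, whose correlation with control artery 4 was 0.917, was kept in those fits, and no fit left out both arteries.

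Lox, the founding member of the family and a main cross-linking enzyme of the arterial wall, was measured at 902, 1009, 1070 and 403 CPM in control arteries 1 to 4. In injured arteries 1 to 4, Lox was at 802, 1165, 703 and 937 CPM. The injured values lay within and around those of control arteries 1 to 3, and the lowest value of all was that of control artery 4. The mean was 846 ± 303 CPM (SD, n = 4) in the controls and 901 ± 200 CPM (SD, n = 4) in the injured arteries. The log2 fold change of Lox was 0.09 (SE 0.31, 95% interval -0.63 to 0.81, FDR = 0.869 by edgeR's quasi-likelihood test), which was well within the spread between arteries. Without control artery 4 it was -0.15 (SE 0.17, 95% interval -0.55 to 0.26, edgeR FDR = 0.567), so the sign of the estimate turned on that artery. The arteries are whole vessels, so fewer cells of a type and less RNA per cell cannot be told apart, here and for every gene below.

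Loxl1, which is needed to keep elastic fibres in repair, was measured at 536, 444, 483 and 188 CPM in the controls. Its injured values were 601, 769, 502 and 678 CPM. Injured artery 3 was below control artery 1, and apart from this pair each injured artery lay above each control. The mean was 413 ± 155 CPM (SD, n = 4) in the controls and 637 ± 113 CPM (SD, n = 4) after injury, a log2 fold change of 0.63 (SE 0.31, 95% interval -0.09 to 1.35, edgeR FDR = 0.218). Without control artery 4 the difference was 0.38 on the log2 scale (SE 0.16, 95% interval 0.02 to 0.74, edgeR FDR = 0.101). Loxl1 thus did not pass the test in either fit.

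Loxl2, a family member known to act on type IV collagen of basement membranes and on fibrillar collagen, was measured at 60.1, 78.8, 87.6 and 45.1 CPM in the controls. In the injured arteries it was at 109, 164, 112 and 126 CPM. Every injured artery was above every control, the closest being injured artery 1 and control artery 3. The mean was 67.9 ± 19.0 CPM (SD, n = 4) in the controls and 128 ± 25.3 CPM (SD, n = 4) after injury. The edgeR log2 fold change of Loxl2 was 0.91 (SE 0.23, 95% interval 0.38 to 1.44), a fold of 1.88, with FDR = 0.0306. An exact permutation test on its log2 CPM gave two-sided p = 0.0286, the smallest that 70 relabellings of the 8 arteries allow.

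Loxl2 therefore met the study's FDR criterion of 0.05 but not its criterion of a fold change above 2, and it was not called. The FDR criterion alone was met by 10.8% of tested genes as higher in injured arteries, and 14.2% of tested genes had every injured artery above every control. With control artery 4 left out, Loxl2 had a log2 fold change of 0.75 (SE 0.18, 95% interval 0.33 to 1.18, edgeR FDR = 0.0178), and the FDR criterion alone was then met by 17.0% of genes in this direction. The result was near the threshold. When each artery was left out in turn, the edgeR FDR of Loxl2 ran from 0.0178 to 0.0861 and was under 0.05 in 3 of 8 fits, while the log2 fold change stayed between 0.75 and 1.05. Without control artery 3 it was called, at a log2 fold change of 1.05.

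Marker genes of several cell types differed between the same groups as Loxl2. Macrophage markers summed to between 134 and 210 CPM in the controls and between 1375 and 2274 CPM in the injured arteries, with 7 of 7 called as higher, where 8.31% of all tested genes were called in that direction. Proliferation markers summed to between 6.67 and 12.0 CPM in the controls and between 74.5 and 109.8 CPM after injury, with 6 of 6 called as higher. Contractile smooth muscle markers were lower, at 17297 to 50172 CPM in the controls and 10474 to 16501 CPM after injury, with 4 of 7 called as lower, where 2.57% of all tested genes were. That count was 6 without control artery 4, 0 without injured artery 4, and 1 or 2 when any other artery was left out. Skeletal muscle markers summed to between 83.4 and 251 CPM in the controls and between 283 and 1008 CPM after injury, with 5 of 7 called as higher. Of 6 endothelial markers 3 were called as higher and 1 as lower, and their sums overlapped, at 741 to 2029 CPM in the controls and 598 to 863 CPM after injury. The part of these cell types in the values of Loxl2 was not tested.

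Loxl3, known for its role in the formation of cartilage and palate, was measured at 56.4, 45.8, 58.7 and 23.3 CPM in the controls. The injured arteries gave 48.5, 64.3, 43.1 and 57.5 CPM. The groups overlapped between 43.1 and 58.7 CPM, and control artery 4 was below every injured artery. The mean was 46.0 ± 16.2 CPM (SD, n = 4) in the controls and 53.4 ± 9.40 CPM (SD, n = 4) after injury, a log2 fold change of 0.21 (SE 0.28, 95% interval -0.43 to 0.86, edgeR FDR = 0.65). Without control artery 4 the estimate was -0.01 (SE 0.16, 95% interval -0.38 to 0.35, edgeR FDR = 0.959). Loxl3 overlaps the protein-coding gene Htra2 in the RefSeq annotation of GRCr8, and Lox overlaps the pseudogene Rps3a-ps12. Strand use in the counting was not given in the sources used here, so reads of the overlapping stretches cannot be told apart.

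Loxl4, the member with the fewest counts (72 to 263 per library), was measured at 16.6, 12.6, 16.8 and 4.98 CPM in the controls. Injured arteries 1 to 4 gave 11.7, 19.0, 9.40 and 13.9 CPM. Here too the groups overlapped, with the lowest value in control artery 4. The mean was 12.8 ± 5.55 CPM (SD, n = 4) in the controls and 13.5 ± 4.10 CPM (SD, n = 4) after injury, a log2 fold change of 0.08 (SE 0.39, 95% interval -0.81 to 0.97, edgeR FDR = 0.908). Without control artery 4 the estimate was -0.19 (SE 0.25, 95% interval -0.76 to 0.38, edgeR FDR = 0.593).

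**Figure D1:**
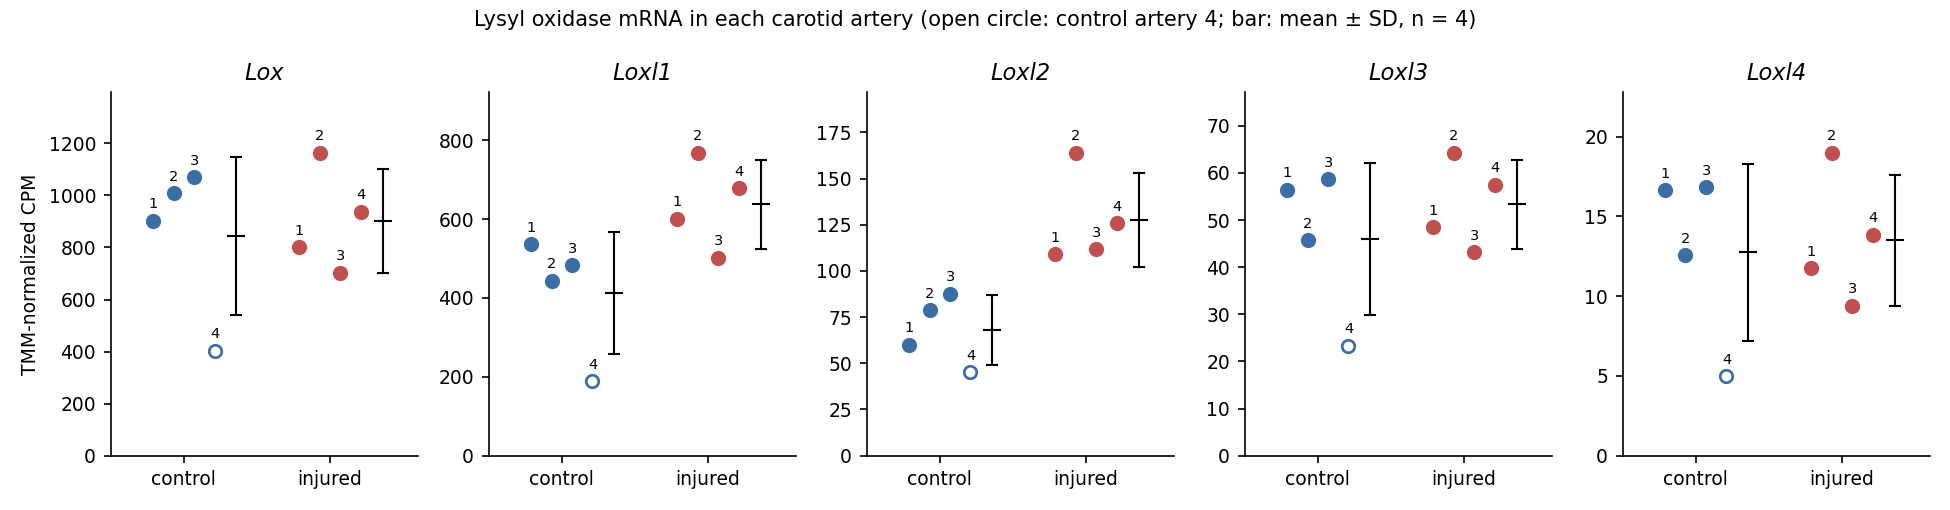
CPM of each lysyl oxidase in the 4 control and 4 injured carotid arteries, with 1 point per artery and the mean and SD of each group. The Loxl2 groups are separate (at most 87.6 CPM in controls, at least 109 CPM in injured arteries), and control artery 4 is the lowest point of every panel.

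In the count of calls, 0 of 5 lysyl oxidases passed both criteria with edgeR, beside 10.9% of all tested genes, and 0 of 5 with DESeq2, beside 12.9%. Without control artery 4 the edgeR count was again 0 of 5, beside 16.2%. With the edgeR FDR criterion alone 1 of 5 passed, beside 17.2%. At an unadjusted edgeR p under 0.05, 1 of 5 was higher and 0 lower, beside 16.8% and 14.3% of all tested genes. The median log2 fold change was 0.21 over the 5 lysyl oxidases and -0.06 over all tested genes. The approximate 95% intervals of Lox, Loxl3 and Loxl4 all lay within -1 and 1 on the log2 scale. A difference above 2-fold in either direction was outside them, but narrowly for Loxl4, whose upper bound was 0.97. For Loxl1 and Loxl2 a fold above 2 was still inside the interval, whose upper bounds were 2.54-fold and 2.71-fold.

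**Figure D2:**
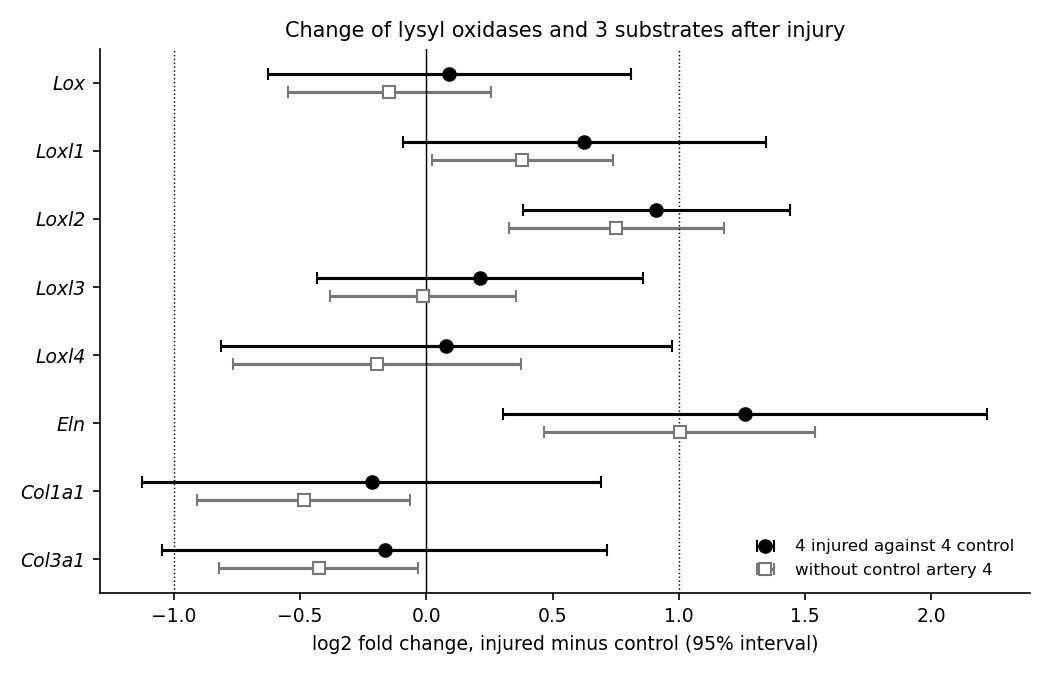
Log2 fold change (injured minus control) of each lysyl oxidase and of Eln, Col1a1 and Col3a1 with its 95% interval, from edgeR over all 8 arteries (filled) and without control artery 4 (open). Among the lysyl oxidases, the interval of Loxl2 alone excludes 0 in both fits, and the estimates of Lox, Loxl3 and Loxl4 are below 0 without control artery 4.

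All 5 lysyl oxidases had their lowest value in control artery 4, where 26.4% of tested genes were below every other artery. Relative to the mean of the other controls, Loxl4 was at 32.5%, Loxl1 at 38.6%, Lox at 40.5%, Loxl3 at 43.5% and Loxl2 at 59.8%. The median tested gene was at 98.3%. Summed contractile smooth muscle markers were at 39.9% and summed adventitial fibroblast markers at 53.6% in the same artery, and the part of either in the lysyl oxidase values was not tested. The sum of the 5 members was 1386 ± 485 CPM (SD, n = 4) over all controls, 1626 ± 78.8 CPM (SD, n = 3) over control arteries 1 to 3, and 1733 ± 349 CPM (SD, n = 4) after injury.

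The share of each member in the family was compared next. A ratio of counts within a library does not depend on how libraries are scaled, so each member was also set against each other member in the same artery. Lox made up 57.4%, 63.4%, 62.3% and 60.6% of the family's counts in control arteries 1 to 4, and 51.0%, 53.4%, 51.3% and 51.7% in injured arteries 1 to 4. Each injured artery was below each control. Loxl1 made up 29.6 ± 3.00% (SD, n = 4) in the controls and 36.9 ± 1.27% (SD, n = 4) after injury, and every injured artery was above every control. The share of Loxl2 was 5.17 ± 1.22% (SD, n = 4) in the controls and 7.40 ± 0.584% (SD, n = 4) after injury. Its groups were also separate, but only just, with 6.79% in control artery 4 and 6.94% in injured artery 1. The shares of an artery are parts of the same total, so a lower share of Lox goes with higher shares of other members. They are not independent of each other. These shares are of counts, not of molecules, since a longer transcript gives more reads.

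Against Lox, the counts of Loxl1 were at 59.5%, 44.0%, 45.2% and 46.7% in the controls and at 75.0%, 66.0%, 71.5% and 72.3% in the injured arteries. The log2 ratio was higher by 0.55 after injury (SE 0.11, two-sided exact permutation p = 0.0286, adjusted p = 0.0571 over 10 ratios). Inverting the permutation test gave an interval of 0.16 to 0.76 for this shift. Control artery 4 did not stand apart in this measure, as it lay between control arteries 1 and 3.

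The counts of Loxl2 relative to Lox were 6.67%, 7.81%, 8.19% and 11.2% in the controls and 13.6%, 14.1%, 15.9% and 13.4% after injury. Again every injured artery was above every control. The log2 ratio was higher by 0.78 (SE 0.17, interval 0.27 to 1.25, two-sided exact permutation p = 0.0286, adjusted p = 0.0571). Leaving out each artery in turn gave 0.67 to 0.92 for this ratio and 0.51 to 0.65 for Loxl1 relative to Lox.

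**Figure D3:**
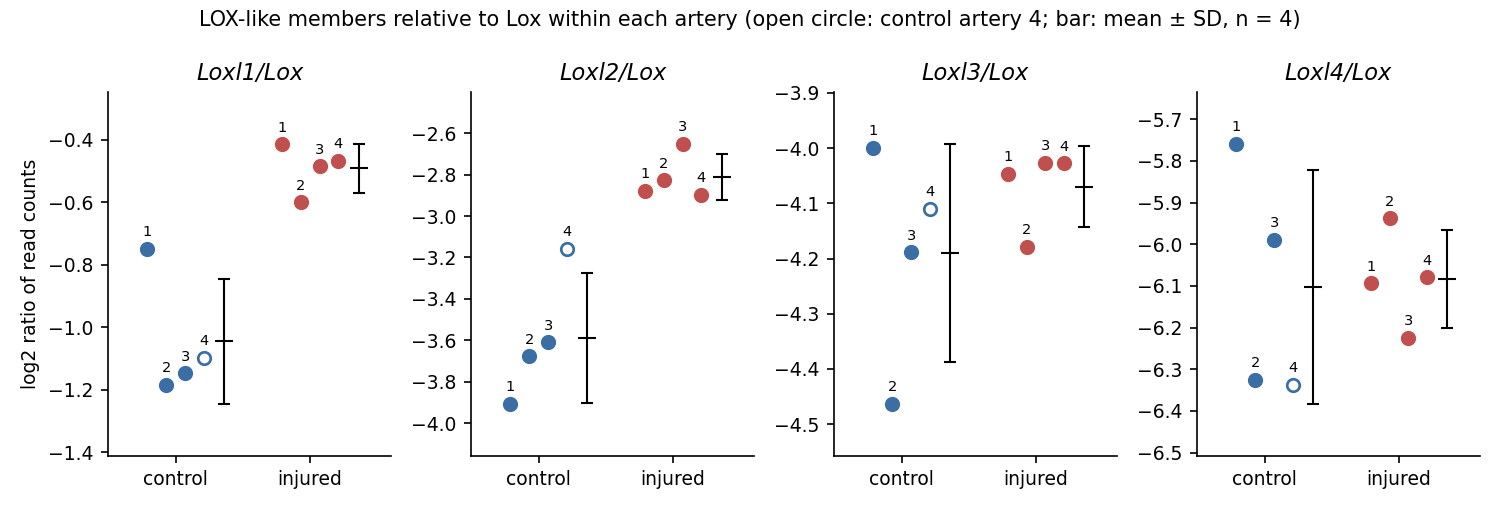
Log2 ratio of the counts of Loxl1, Loxl2, Loxl3 and Loxl4 to those of Lox in each artery, with group means and SD. Loxl1 and Loxl2 are higher relative to Lox in each injured artery than in each control (shifts of 0.55 and 0.78), while the groups overlap for Loxl3 and Loxl4.

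For Loxl3 and Loxl4 relative to Lox the groups overlapped. The log2 ratio of Loxl3 to Lox differed by 0.12 (interval -0.17 to 0.43, two-sided exact permutation p = 0.343), and that of Loxl4 to Lox by 0.02 (interval -0.46 to 0.39, exact permutation p = 0.886). As folds, the intervals ran from 0.889 to 1.35 for Loxl3 and from 0.727 to 1.31 for Loxl4. Relative to Loxl1, the log2 ratio shifted by -0.43 for Loxl3 (interval -0.61 to -0.27) and by -0.53 for Loxl4 (interval -0.89 to -0.10), with no overlap between groups for either. Loxl3 was also lower relative to Loxl2 in every injured artery, from 93.8%, 58.0%, 67.0% and 51.7% of the Loxl2 counts in the controls to 44.4%, 39.2%, 38.6% and 45.7% after injury. The ratio of Loxl2 to Loxl1 overlapped between the groups, with a shift of 0.22 (interval -0.40 to 0.99, exact permutation p = 0.486).

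Of the 10 ratios between members, 5 had groups that did not overlap, beside 25.7% of all ratios of a lysyl oxidase to a tested gene. The 10 ratios share 5 genes and are not independent of each other. After adjustment over the 10, 0 were under 0.05, and 5 had an unadjusted exact permutation p under 0.05. These 5 were at p = 0.0286, the smallest that the exact permutation test allows, and their adjusted p was 0.0571. At that floor, the outcome after adjustment depends only on how many ratios reach it. Without control artery 4, 7 of the 10 were under 0.05, with adjusted p = 0.0408 by the exact permutation test. These 7 were again at the smallest p that the 35 relabellings then allow, so the step under 0.05 reflects their number. The groups of these 7 did not overlap, where 35.6% of all ratios of a lysyl oxidase to a tested gene had no overlap without that artery.

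The substrates of the enzymes were looked at next. This list and the lists below were chosen with earlier results of these data known, so their counts of calls are descriptions. Of 12 elastin and collagen genes, edgeR called 3 as higher in the injured arteries and 0 as lower, beside 8.31% and 2.57% of all tested genes. With DESeq2, 5 were higher and 0 lower, beside 9.61% and 3.30% of its tested genes. At an unadjusted edgeR p under 0.05, 7 were higher and 0 lower, beside 16.8% and 14.3% of all tested genes. The median log2 fold change over the 12 was 0.91. Col11a1, a minor fibrillar collagen of cartilage and of remodelling tissue, rose from 8.32, 5.31, 6.35 and 20.9 CPM in the controls to 67.0, 300.5, 91.2 and 105.3 CPM after injury (log2 fold change 3.78, edgeR FDR = 0.0065). Col5a3, a chain of the type V collagen that regulates fibril diameter, rose by 1.60 on the log2 scale (edgeR FDR = 0.0309), a call kept in 3 of the 8 fits that left out an artery. Col4a1, a basement membrane chain and thus a substrate type on which LOXL2 is known to act, rose by 1.09 (edgeR FDR = 0.0097), but without control artery 4 its log2 fold change was 0.94 and it was not called. Col2a1, the main cartilage collagen, had a log2 fold change of 2.30 at 0.163 to 6.93 CPM (edgeR FDR = 0.119), and Col5a2 had 0.94 (edgeR FDR = 0.0857). Cartilage markers, among them Col2a1 itself, moved with Col11a1, at 12.9 to 21.5 CPM summed in the controls and 120 to 402 CPM after injury. Of the 5 tested markers 4 were called as higher, and Col2a1 was not. The part of cartilage cells in the Col11a1 and Col2a1 values was not tested.

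Elastin, Eln, was at 20925, 20113, 22355 and 7465 CPM in the controls and at 27602, 53444, 40444 and 48479 CPM in the injured arteries. Every injured artery was above every control. The log2 fold change was 1.26 (SE 0.42, edgeR FDR = 0.0753), and without control artery 4 it was 1.00 with edgeR FDR = 0.0145, which met both criteria, as 12.3% of genes then did in this direction. Of the main fibrillar collagens, neither Col1a1 nor Col3a1 passed the test. Col1a1 had a log2 fold change of -0.22 (edgeR FDR = 0.746) and Col3a1 of -0.16 (edgeR FDR = 0.805). Without control artery 4 the values were -0.48 (edgeR FDR = 0.0802) and -0.43 (edgeR FDR = 0.0965). Col1a2, also a chain of type I collagen, had -0.64 (edgeR FDR = 0.316). Without control artery 4 Col1a2 had -0.92 (edgeR FDR = 0.0144), which met the FDR criterion but not that of the fold.

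Set against elastin in the same artery, the Lox counts were at 4.31%, 5.02%, 4.79% and 5.40% of the Eln counts in the controls and at 2.90%, 2.18%, 1.74% and 1.93% after injury. Each injured artery was below each control, and control artery 4 was the highest of the controls. The shift of the log2 ratio was -1.18 (SE 0.17, interval -1.63 to -0.57, two-sided exact permutation p = 0.0286, adjusted p = 0.0714 over 15 ratios). The ratios of Loxl3 and Loxl4 to Eln shifted by -1.06 and -1.16, again without overlap. Loxl1 relative to Eln shifted by -0.63 (interval -1.04 to 0.01, exact permutation p = 0.0571), with overlapping groups. For Loxl2 relative to Eln the shift was -0.40 (interval -1.21 to 0.46, exact permutation p = 0.2).

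Relative to Col1a1 and Col3a1 the shifts of all members were positive. The order of the members was that seen against Eln, since another denominator moves them all alike. Other fibrillar collagens, such as Col5a3 and Col11a1, rose after injury and were not used as denominators. Loxl1 was at 2.25%, 1.73%, 1.80% and 2.23% of the Col1a1 counts in the controls and at 3.07%, 3.42%, 3.70% and 3.87% after injury, a log2 ratio higher by 0.82 (SE 0.12, interval 0.45 to 1.16, exact permutation p = 0.0286). Loxl2 relative to Col1a1 was higher by 1.04 (SE 0.26, interval 0.07 to 1.70, exact permutation p = 0.0286) and Loxl1 relative to Col3a1 by 0.77 (SE 0.13, interval 0.31 to 1.06). Loxl2 relative to Col3a1 was higher by 0.99, but there control artery 4 (0.474% of the Col3a1 counts) passed injured artery 1 (0.456%) and the exact permutation p was 0.0571. For Lox, Loxl3 and Loxl4 against Col1a1 or Col3a1 the shifts ran from 0.22 to 0.39 and the groups overlapped in all 6 cases. Of the 15 ratios to Eln, Col1a1 and Col3a1, 6 had groups that did not overlap. The 3 that were higher made a share close to the 19.8% of all ratios of a lysyl oxidase to a tested gene that were higher, and are no result about the lysyl oxidases. The other 3 were lower, where 5.90% of all such ratios were. These were Lox, Loxl3 and Loxl4 against the same gene, Eln, which was itself higher in every injured artery. They are not independent of each other. None of the 15 was under 0.05 after adjustment, and 6 had an unadjusted exact permutation p under 0.05. These 6 were at the smallest p that the exact permutation test allows, 0.0286, which gave an adjusted p of 0.0714.

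**Figure D4:**
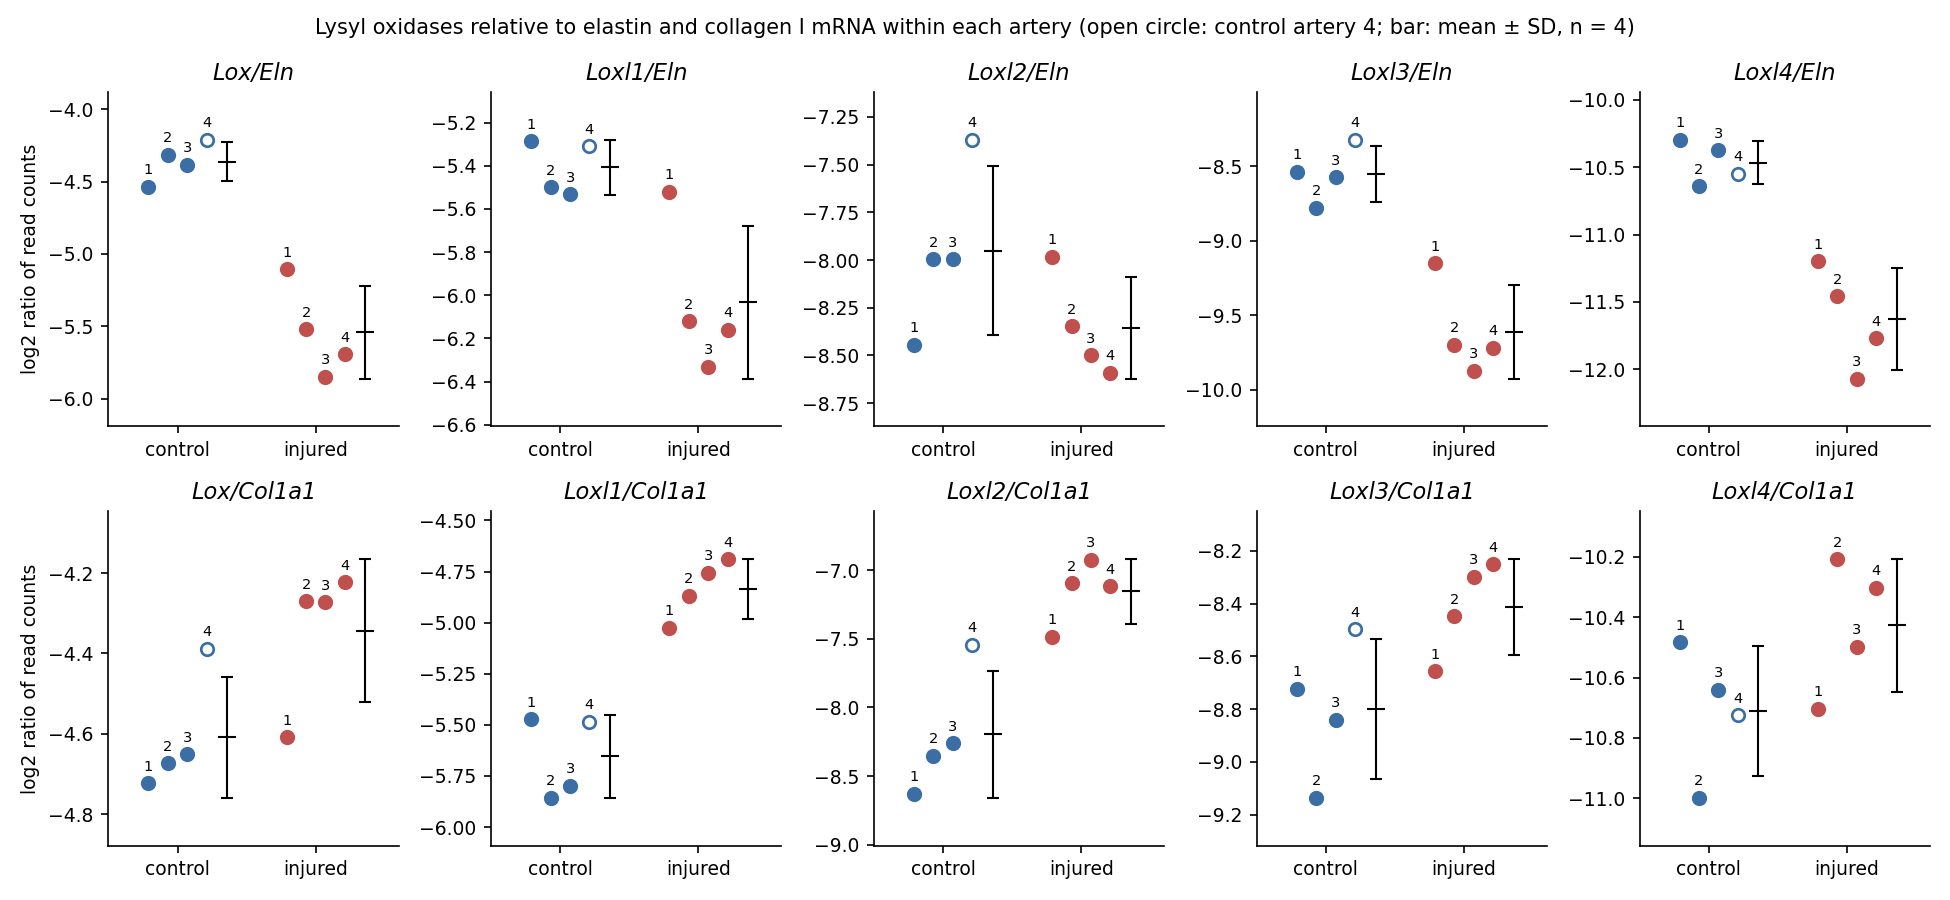
Log2 ratio of the counts of each lysyl oxidase to those of Eln and Col1a1 in each artery, with 1 point per artery and the mean and SD of each group. Lox, Loxl3 and Loxl4 are lower relative to Eln in all injured arteries (shifts of -1.18, -1.06 and -1.16), and Loxl1 and Loxl2 are higher relative to Col1a1 (shifts of 0.82 and 1.04), but none of these ratios was under 0.05 after adjustment.

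Of the proteases and enhancers that process procollagens and the LOX propeptide, 6 of 7 were tested. With edgeR, 2 were called as higher and 1 as lower, beside 8.31% and 2.57% of all tested genes. Tll1, a tolloid-like protease that cleaves the LOX propeptide, rose from 4.09, 5.23, 5.94 and 3.88 CPM in the controls to 18.7, 19.2, 14.5 and 23.5 CPM (log2 fold change 1.99, edgeR FDR = 0.0010). Adamts14, a procollagen N-proteinase, rose by 2.29 on the log2 scale (edgeR FDR = 0.0010). PCOLCE2, an enhancer of procollagen C-proteinase, fell from 217, 236, 224 and 114 CPM to 61.1, 43.4, 35.9 and 46.0 CPM (log2 fold change -2.08, edgeR FDR = 0.0018). All 3 calls were kept in the 8 fits that left out an artery. Bmp1, the main protease of the LOX propeptide, had a log2 fold change of 0.43 (edgeR FDR = 0.359), Pcolce of 0.56 (edgeR FDR = 0.233) and Adamts2, which removes procollagen N-propeptides, of -0.25 (edgeR FDR = 0.596). Tll2 was not tested, with at most 0.951 CPM in 7 arteries and 9.83 CPM in control artery 4.

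Among 9 matrix proteins that bind lysyl oxidases, BMP1 or tropoelastin and dock them at fibres, 2 were called as higher. Of all tested genes, 8.31% were called in that direction. Postn, periostin, which brings BMP1 and LOX together on the matrix, rose from 249, 201, 179 and 112 CPM in the controls to 1164, 2427, 1112 and 1813 CPM after injury (log2 fold change 3.13, edgeR FDR = 0.0011). Thbs1, thrombospondin-1, a matricellular protein, rose by 2.14 (edgeR FDR = 0.0401), a call kept in 2 of the 8 fits that left out an artery. Ltbp4, a scaffold of elastic fibre assembly, had a log2 fold change of -1.02 (edgeR FDR = 0.0631), and without control artery 4 it was called as lower at -1.26, in a fit that called 3.94% of genes as lower. Emilin1, an elastic fibre glycoprotein, had 0.69 (edgeR FDR = 0.285) and Fn1, fibronectin, had 0.45 (edgeR FDR = 0.438).

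Copper supply was represented by 6 genes, of which 4 were tested. By edgeR 0 were called, beside 10.9% of all tested genes, and by DESeq2 0, beside 12.9%. At an unadjusted edgeR p under 0.05, 1 was higher, beside 16.8% of all tested genes. That gene was Ccs, the copper chaperone of superoxide dismutase, at a log2 fold change of 0.95 (edgeR FDR = 0.021), and without control artery 4 it was called at 1.19. Slc31a1, the copper importer, was at 203 CPM in control artery 4 and between 18.4 and 26.6 CPM in the other controls, so its log2 fold change of -1.07 (edgeR FDR = 0.419) became 0.54 without that artery. Slc31a2 had 0.33 (edgeR FDR = 0.261). Atp7a, which loads copper onto lysyl oxidases in the secretory pathway, was listed at 0 counts in all 8 arteries, and Atp7b at no more than 1.18 CPM. The counting tool and genome build are not given, so absence of Atp7a mRNA cannot be told apart from reads that were not counted.

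Of 8 enzymes that form or prepare other matrix cross-links, 1 was called as higher and 1 as lower, beside 8.31% and 2.57% of tested genes. Pxdn, peroxidasin, which cross-links type IV collagen through sulfilimine bonds, rose from 271, 273, 315 and 199 CPM to 452, 696, 514 and 607 CPM (log2 fold change 1.10, edgeR FDR = 0.0071). Tgm2, tissue transglutaminase, fell from 1271, 1258, 1167 and 519 CPM to 468, 373, 319 and 474 CPM (log2 fold change -1.37, edgeR FDR = 0.0173). Both calls were kept in 6 of the 8 fits that left out an artery. The lysyl hydroxylases Plod1 and Plod2, which hydroxylate the lysines that lysyl oxidases act on, had 0.41 (edgeR FDR = 0.0685) and 0.35 (edgeR FDR = 0.466), and Colgalt1, a collagen galactosyltransferase, had 0.22 (edgeR FDR = 0.204). Of the other copper amine oxidases, only Aoc3, a vascular smooth muscle and endothelial amine oxidase, could be tested. It had a log2 fold change of -0.93 (edgeR FDR = 0.0933), and without control artery 4 it was called as lower at -1.19. Aoc1 had at most 0.448 CPM, and Aoc2 was not analysed here.

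Genes known to induce lysyl oxidases, or to be tied to them in fibrosis and hypoxia, numbered 12. Of these, 2 were called as higher, beside 8.31% of all tested genes. Tgfb1, a growth factor that induces Lox in many cells, rose from 54.2, 46.0, 44.3 and 32.9 CPM in the controls to 107.8, 121, 111 and 123 CPM after injury (log2 fold change 1.39, edgeR FDR = 0.0011). Snai2, a transcription factor, rose by 2.30 on the log2 scale, at 0.502 to 1.59 CPM in the controls and 4.40 to 5.43 CPM after injury (edgeR FDR = 0.0037). Both calls were kept in the 8 fits that left out an artery. Snai1 had 1.05 (edgeR FDR = 0.097), Tgfbr2, a receptor of TGF-beta, had 0.74 (edgeR FDR = 0.0125), and Twist1 had 0.70 (edgeR FDR = 0.121). Of the 12, 10 had a positive log2 fold change, while the TGF-beta ligands Tgfb3 and Tgfb2 had a negative one. Tgfb3, at a mean of 888 CPM in the controls and 583 CPM after injury, had -0.61 (edgeR FDR = 0.257). Tgfb2 had -0.38 (edgeR FDR = 0.462). Without control artery 4 they had -0.83 (edgeR FDR = 0.0328) and -0.61 (edgeR FDR = 0.043), and neither was called.

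**Figure D5:**
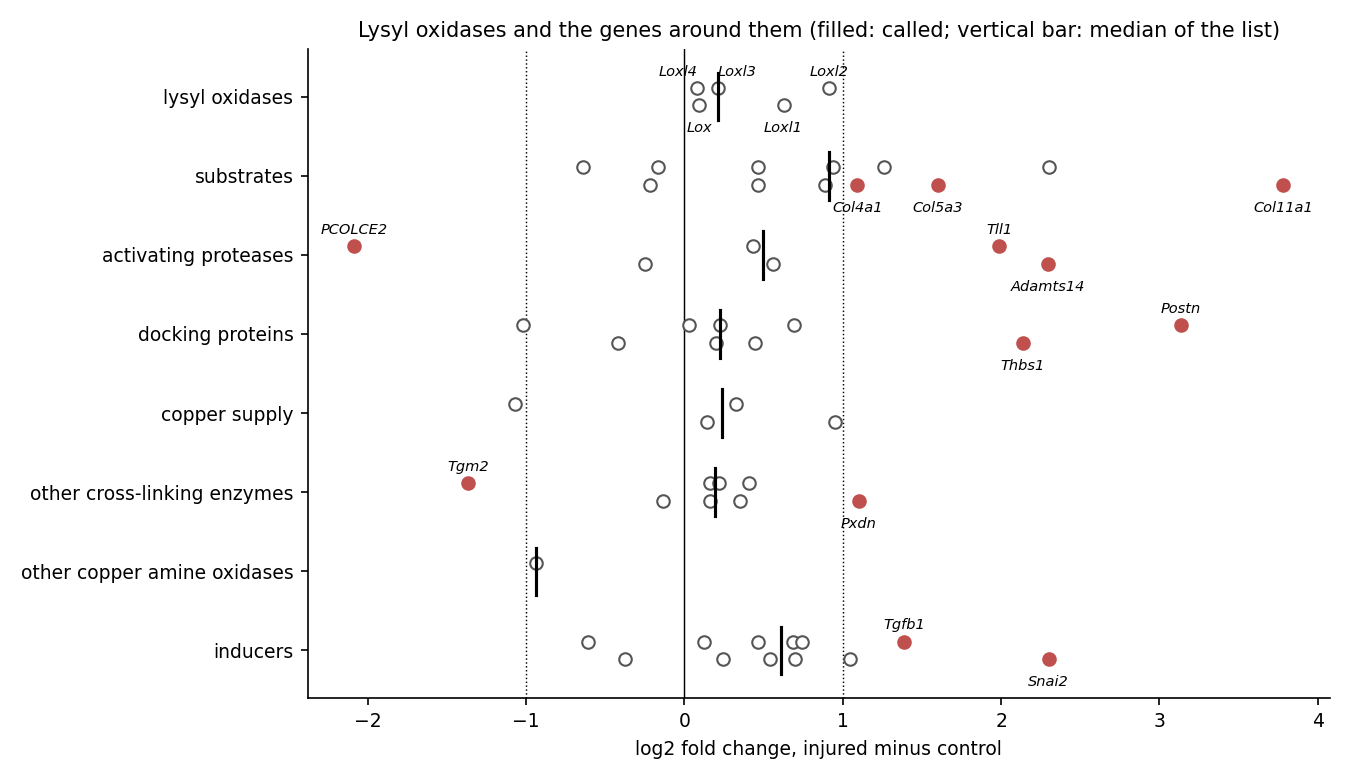
Log2 fold change (injured minus control) of the lysyl oxidases and of 7 lists of genes around them, with 1 point per tested gene, filled where FDR was under 0.05 and the fold above 2, and the median of each list as a vertical bar. The 5 lysyl oxidases lie between 0.08 and 0.91 with 0 filled points, and filled points reach 3.78 for Col11a1 among the substrates.

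To find the genes whose pattern was most like that of each member, log2 CPM was centred on each gene's mean, and the root mean square difference over the 8 arteries was taken to each of 12893 genes. These are descriptions over 8 arteries that share libraries, and control artery 4 weighs on all of them. For Lox the closest were B3gnt9 (0.09), a glycosyltransferase gene, Rest (0.10), a transcriptional repressor, and Leprel2 (0.10), a collagen prolyl 3-hydroxylase, against a median of 0.57 over all genes. For Loxl1 they were Eva1b (0.07), Scarf2 (0.08), a scavenger receptor, and LOC102548476 (0.08), against a median of 0.68. Loxl2 lay closest to Stk17b (0.10), a protein kinase, Dock8 (0.14), a guanine nucleotide exchange factor of immune cells, and RT1-CE4 (0.14), a class I major histocompatibility gene, also against a median of 0.68. For Loxl3 they were H6pd (0.09), a hexose-6-phosphate dehydrogenase, Antxr1 (0.09), a collagen-binding receptor, and Fzd2 (0.09), a Wnt receptor, and for Loxl4 LOC103692437 (0.07), B3gnt9 (0.12) and Grin2d (0.14), a glutamate receptor subunit.

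Lox, Loxl3 and Loxl4 were close to each other in this measure. Only 0.109% of genes were nearer to Lox than Loxl3 was, and 0.031% nearer to Loxl4 than Loxl3 was. Loxl2 stood further off, with 26.9% of genes nearer to Lox and 24.0% nearer to Loxl4 than it was.

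The sequence upstream of the start site is shown for Loxl3 and Loxl4, whose values ran close together, and for Loxl1, which was higher relative to both after injury. They are the 3 of 5 members with an entry in the RefSeq promoter table of build GRCr8, which may not be the build used for the counts. Capitals mark matches, on either strand, to the SMAD box core CAGAC or the GC box core GGGCGG. The Loxl1 sequence is on the minus strand at chr8:67612225-67612474, that of Loxl3 on the plus strand at chr4:117098108-117098357, and that of Loxl4 on the minus strand at chr1:251365641-251365827. Each runs 5′ to 3′ and stops before the annotated start of the gene.
Loxl1: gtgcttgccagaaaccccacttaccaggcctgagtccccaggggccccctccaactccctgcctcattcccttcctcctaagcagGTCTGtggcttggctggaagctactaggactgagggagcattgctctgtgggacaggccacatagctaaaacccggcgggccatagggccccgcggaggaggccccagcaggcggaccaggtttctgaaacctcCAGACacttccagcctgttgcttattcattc
Loxl3: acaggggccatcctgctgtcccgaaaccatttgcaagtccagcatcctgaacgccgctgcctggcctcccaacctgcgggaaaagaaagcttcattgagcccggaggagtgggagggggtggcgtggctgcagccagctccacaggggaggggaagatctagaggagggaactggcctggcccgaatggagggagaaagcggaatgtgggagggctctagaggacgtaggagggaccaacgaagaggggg
Loxl4: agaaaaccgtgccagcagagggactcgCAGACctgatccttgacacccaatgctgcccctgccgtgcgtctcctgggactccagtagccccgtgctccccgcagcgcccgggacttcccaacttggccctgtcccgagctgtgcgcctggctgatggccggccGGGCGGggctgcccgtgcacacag
Loxl1 had 2 matches to CAGAC, Loxl4 had 1 to CAGAC and 1 to GGGCGG, and Loxl3 had 0 to either. In windows of 250 bases, 42.9% of 33469 RefSeq promoters held CAGAC and 30.5% held GGGCGG. The Loxl4 window was shorter, and over the same 187 bases 34.9% held CAGAC and 22.1% held GGGCGG. Of the other letters searched, with 0 matches in the 3 sequences, the TATA box core TATAAA was held by 12.9% of promoters over 250 bases. The hypoxia response element core ACGTG was held by 16.6%. The AP-1 site TGANTCA was held by 6.34%. No motif overlapped another in these sequences.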

How the data were processed

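RNA-seq libraries of 4 injured and 4 control carotid arteries were used. For every gene the authors gave raw read counts per library, deposited as 1 table with 1 column per artery (0 columns not used). HISAT2 2.0.4 is named in the submitters' processing notes. The counting tool, its strand setting and the genome build are not given in the sources used here, so reads shared between overlapping or near-identical genes may have gone to either.

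Genes with low counts were removed with filterByExpr, libraries were scaled by TMM, and groups were compared by the quasi-likelihood test of edgeR 4.0.16 (R 4.3.3) without covariates, with FDR over all 14359 tested genes. A gene was called at FDR under 0.05 with a fold change above 2, the criteria of the study. The alternatives were DESeq2 1.42.0, other scalings, filters and call rules, a replicate block, and leaving out each artery in turn. Log2 ratios of counts within a library were compared by two-sided exact permutation tests over 70 relabellings (SciPy 1.17.1), adjusted by Benjamini-Hochberg over 10 or 15 ratios. Intervals of ratios hold the shifts that this test did not reject. The background of such ratios was taken on counts plus 0.5. Floors cover counting error only. Nothing in the labels beyond sample titles says how libraries of a group relate, so p-values measure the spread between these libraries.

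Tested on simulated data for injured against control arteries with 200 genes changed 4-fold, edgeR recovered 65% with 4 false calls among 14122 genes and DESeq2 85.5% with 44 among 14321. The simulated data held no outlying artery, and the largest fold of a lysyl oxidase was 1.88. These rates therefore do not give the power for the lysyl oxidases. The members were taken by symbol and no measured value entered their selection. However, the members, lists and motifs were all chosen with earlier results of these data known. Named were the 5 members, called genes of each list, up to 3 uncalled genes of each list with the largest change, Eln, Col1a1, Col3a1, and the 3 genes most like each member with an average log2 CPM above 1. Untested genes, Neurod6, Col1a2, Tgfb2 and Tgfb3 were named after their values were seen.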

Additional observations from a re-analysis of the deposited data

Results flagged for a closer look

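In 6 of 66 groups of 4 arteries examined, 1 artery lay far from the other 3, measured as its gap to the nearest artery divided by the range of the group (beyond Dixon's 95% critical value). Chance flags about 1 in 20 groups, or 3.3 of 66, and the groups share arteries and genes. Control artery 4 was concerned in 3 of the 6. Eln was at 7465 CPM there against 20113 CPM in the nearest control (0.849), Col1a1 at 8434 CPM against 23826 CPM (0.834), and Col3a1 at 9532 CPM against 26381 CPM (0.87). None of the 5 lysyl oxidases was flagged for this artery by its own CPM, although each was lowest there.

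The other 3 were ratios in injured arteries. The log2 ratio of Loxl3 to Lox was -4.18 in injured artery 2 and -4.05 in the nearest injured artery (0.867). The log2 ratio of Lox to Col1a1 was -4.61 in injured artery 1 against -4.27 (0.873), and that of Loxl3 to Col3a1 was -8.95 in injured artery 1 against -8.49 (0.912).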

How the results depend on the processing

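Lox, Loxl1, Loxl3 and Loxl4 passed the test under no alternative, and Loxl1 and Loxl2 kept their positive sign under all of them. Loxl2 passed both criteria with library totals only (1.09, a scaling that moved the median of all genes by 0.179) and passed the FDR criterion alone (0.91), which made 1 lysyl oxidase called in each case. Scaled by library totals, 6 substrates and 1 copper supply gene were called. DESeq2 called 5 substrates, upper-quartile factors 1 copper supply gene, and omission of the low-count filter 1 docking protein. At 10 counts or more in every artery, 12334 genes were tested and 1007 (8.16%) were called, with 1 of 11 tested inducers. The FDR criterion alone called 2470 genes, 1 copper supply gene and 4 inducers. A test against a fold change of 2 called 661 genes, 1 substrate, 1 docking protein, 0 other cross-linking enzymes and 1 inducer. Leaving out each artery in turn gave 1142 to 2398 genes called, the most without control artery 4, 0 to 1 lysyl oxidases, 1 to 3 docking proteins, 0 to 1 copper supply genes, 0 to 2 other cross-linking enzymes, 0 to 1 other amine oxidases, and 0 to 7 ratios between members under 0.05. The log2 fold changes then ran from -0.15 to 0.22 for Lox, 0.75 to 1.05 for Loxl2 (called without control artery 3), -0.013 to 0.35 for Loxl3 and -0.19 to 0.24 for Loxl4, and the ratio of Loxl4 to Lox from -0.059 to 0.13. Lox and Loxl4 turned negative without control artery 4 or injured artery 2, Loxl3 without control artery 4, and that ratio without control artery 2 or 4 or injured artery 2. The study calls the right artery the self-control and labels share replicate numbers, but no label says that a number marks 1 animal. Deviations of same-numbered arteries correlated at r from -0.52 to 0.45, and 2 of 4 injured arteries correlated best with their own number. The highest r, 0.784, was between control artery 4 and injured artery 3, both high in sympathetic neuron markers. As control artery 4 weighs on these deviations, they cannot decide the pairing. The main fit did not treat the arteries as pairs, and a replicate block was an alternative. With the replicate block 1188 genes and 1 other cross-linking enzyme were called, against 1562 and 2 without it, Col4a1 and Tgm2 were not called, and Loxl2 had 0.94 (edgeR FDR = 0.0534). For ratios, the exact sign-flip test over 4 pairs cannot go below p = 0.125. Chosen after seeing the data, the replicate block without pair 4 gave -0.19 for Lox, -0.057 for Loxl3 and -0.25 for Loxl4, with 1 copper supply gene, 1 other cross-linking enzyme and 1 amine oxidase called. Also chosen then, the FDR criterion alone without control artery 4 called 4419 genes, 1 lysyl oxidase (Loxl2, 0.75), 8 substrates, 4 docking proteins, 1 copper supply gene, 1 amine oxidase and 7 inducers, with -0.15 for Lox, -0.013 for Loxl3 and -0.19 for Loxl4. The causes of these differences between settings were not tested. Depth limits Loxl4 most, at 72 to 263 counts per library.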
